A study of Homo sapiens with 4 samples.

Results

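The genes described here encode 10 CXC chemokines, small secreted proteins that steer leukocytes: CXCL8, CXCL1, CXCL2, CXCL3, CXCL5, CXCL6, CXCL10, CXCL11, CXCL12 and CXCL14. They were taken by gene symbol from the deposited table, each from the row that carries its symbol alone, and each of the 10 had 1 such row among the 21469 genes tested. RNA had been hybridised to the Affymetrix Human Transcriptome Array 2.0, with 1 array per sample. The 2 nocodazole samples, replicates 2 and 3, came from U2OS cells kept in nocodazole for 48 h, and the 2 DMSO samples, also numbered 2 and 3, from cells kept in its solvent for the same time. U2OS is a human osteosarcoma line, and nocodazole breaks down microtubules, so that treated cells arrest in mitosis. All 4 samples shared, per the labels' protocols, medium with 10% serum, 24 h of serum starvation, 24 h of thymidine and 3 h in drug-free medium before treatment, and the sample titles add PLKO.1 without saying what it stands for. The series title concerns cells after slippage, those that leave mitotic arrest without dividing, and factors of the senescence-associated secretory phenotype, to which several CXC chemokines belong.

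CXC chemokines are named for a pair of conserved cysteines with a single residue between them. Members with the residues glutamate, leucine and arginine just before these cysteines, the ELR chemokines, act on the receptors CXCR1 and CXCR2 and draw neutrophils, and many of them are induced through the transcription factor NF-kB. CXCL8, CXCL1, CXCL2, CXCL3, CXCL5 and CXCL6 are of this kind. The non-ELR members have other receptors: CXCL10 and CXCL11 are induced by interferon and draw T cells through CXCR3, CXCL12 binds CXCR4 and ACKR3 and retains haematopoietic cells in bone marrow, and CXCL14 is made by many epithelia. The ELR label is used here as textbook knowledge.

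Of the 10 genes, 2 rose with nocodazole, CXCL8 and CXCL3, both ELR members, and 0 fell. CXCL8 had the largest increase of all 21469 genes, 20.3-fold, and CXCL3 rose 3.30-fold. As deposited these folds were 14.6 and 2.46. On DMSO replicate 2 CXCL8 and CXCL3 stood only 0.76 and 0.08 above background, so the size of either fold is not exact. The other 4 ELR genes had log2 changes of 0.34 to 0.60, which did not pass the test. Among the non-ELR genes CXCL14 had the lowest value, a log2 change of -0.89 that also did not pass, CXCL12 differed by -0.02, and CXCL10 and CXCL11 lay below background on all 4 arrays. A gene was called where limma gave it an adjusted p below 0.05, with 1 sign, in separate fits to the quantile-normalized and to the deposited log2 values, and where it exceeded background on at least 1 array. This rule called 0.144% of all genes higher, 31 of 21469, and 0.0978% lower, 21 of 21469. At an unadjusted limma p under 0.05 after quantile normalization, 4 of the 10 were higher (CXCL8, CXCL3, CXCL1 and CXCL11, the last below background) and 1 was lower (CXCL14), as were 838 and 1167 of all genes. Log2 changes give nocodazole minus DMSO and, like levels, refer to the quantile-normalized values unless the deposited scale is named.

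The arrays as deposited did not share 1 distribution. The median over all genes was 5.87 and 5.68 on nocodazole replicates 2 and 3, against 6.38 and 6.06 on DMSO replicates 2 and 3, so the median gene changed by -0.45 as deposited and by -0.01 after quantile normalization. Background was taken as the median of the 23 antigenomic control rows of each array, which was 4.36 and 3.72 on nocodazole replicates 2 and 3, against 4.81 and 4.02 on DMSO replicates 2 and 3. It is a lenient limit, since 77.7% of genes exceeded it on all 4 arrays and single control rows ran from 1.11 to 12.1. All 12 mesenchymal and osteosarcoma markers exceeded it on all arrays, as did 10 of 12 neutrophil and other leukocyte markers, so presence above background did not separate cell types. The median level was 7.23 to 7.55 per array over the mesenchymal list and 5.18 to 5.42 over the leukocyte list. It was 6.17 to 6.33 over 6 epithelial markers, all above background on all arrays, and 4.24 to 4.38 over 5 endothelial markers. In each of these lists 0 genes passed. In bulk RNA, a change in the share of expressing cells and a change in RNA per cell cannot be told apart.

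**Figure D1:**
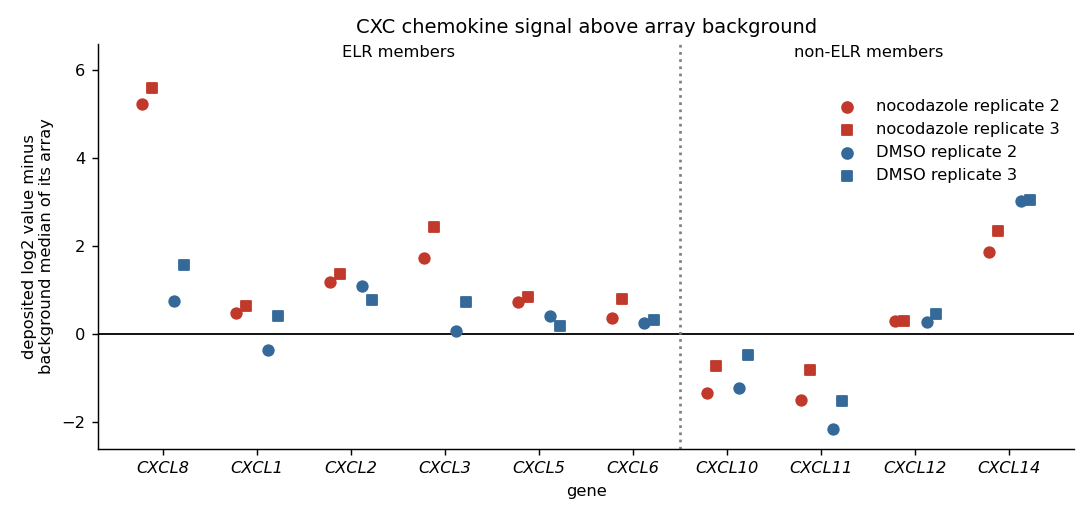
Signal of the 10 genes relative to background. Each point is 1 array, nocodazole in red on the left and DMSO in blue on the right of each gene, and the vertical axis is the deposited log2 value minus the background median of that array. CXCL8 lies 5.24 and 5.60 above background on the nocodazole arrays, and CXCL10 and CXCL11 lie below it on all 4.

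CXCL8 encodes interleukin-8, the prototype of the neutrophil chemokines. Its level after quantile normalization was 9.94 and 9.49 on nocodazole replicates 2 and 3, against 5.15 and 5.59 on DMSO replicates 2 and 3. The groups were far apart, and the smallest gap between any nocodazole and any DMSO array was 3.90. The log2 change was 4.34 ± 0.20 (SE, n = 2 per group; limma adjusted p = 0.000555). On the deposited scale CXCL8 read 9.60 and 9.32 on the nocodazole arrays, against 5.57 and 5.61 on the DMSO arrays, a log2 change of 3.87 ± 0.15 (limma adjusted p = 3.49e-16) and again the highest of all genes, 0.233% of which were called higher on that scale. The DMSO arrays held CXCL8 only 0.76 and 1.58 above background. With any 1 array left out the log2 change was 4.20 to 4.51 and limma's adjusted p 0.0679 to 0.753, so no such fit called it. Raising all values to background, which leaves many dim genes with no spread at all, gave the same change with a limma adjusted p of 0.244.

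The promoter of CXCL8 is shown because it carries the known NF-kB and AP-1 elements, set here beside those of the other members. Sequences are from RefSeq's 300-base windows (250 bases before to 50 after the gene start, GRCh38.p14), which matched all 10 members, and all are printed 5′ to 3′ on the gene's own strand. Capitals mark matches to the 4 motifs searched on both strands: GGAATTTCC and GGGACTTCC of the NF-kB kind, TGANTCA of the AP-1 kind and, of the interferon response kind, GAAA followed by 2 free bases and GAAA. The motifs were chosen after the promoters had been looked at, and a match is a run of letters, not a bound site. CXCL8 covers chr4:73740419-73740568 on the plus strand, the 150 bases before the gene start, with TGACTCA starting 137 and GGAATTTCC starting 91 bases before it.
CXCL8: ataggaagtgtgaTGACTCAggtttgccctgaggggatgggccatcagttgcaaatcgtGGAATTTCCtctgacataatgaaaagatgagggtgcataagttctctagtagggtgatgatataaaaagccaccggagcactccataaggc

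CXCL1, CXCL2 and CXCL3 encode the closely related GRO chemokines, ligands of CXCR2. CXCL3 measured 6.20 and 6.46 on nocodazole replicates 2 and 3, against 4.43 and 4.79 on DMSO replicates 2 and 3. The groups did not overlap, and the change was 1.72 ± 0.19 (SE, n = 2 per group; limma adjusted p = 0.0220), 18th highest of all genes. As deposited CXCL3 read 6.09 and 6.16 with nocodazole, against 4.88 and 4.77 with DMSO, a log2 change of 1.30 ± 0.30 (limma adjusted p = 0.00285). On DMSO replicate 2 it stood only 0.08 above background. The CXCL3 call was lost without a variance trend (limma adjusted p = 0.0722), with values raised to background (0.357) and with any 1 array left out (0.320 to 0.754), at log2 changes of 1.57 to 1.88 in the last case.

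CXCL1 measured 4.90 and 4.73 on nocodazole replicates 2 and 3, against 3.95 and 4.47 on DMSO replicates 2 and 3. Both nocodazole arrays were higher than both DMSO arrays, as for 16.4% of all genes, and the log2 change of 0.60 ± 0.23 did not pass (limma adjusted p = 0.443; 95% interval of the change 0.08 to 1.13). DMSO replicate 2 lay 0.35 below its background median, so the size of that change is not exact. As deposited the log2 change of CXCL1 was 0.16 ± 0.40, and its groups overlapped. CXCL2 measured 5.62 and 5.42 on the nocodazole arrays, against 5.51 and 4.82 on the DMSO arrays. Its groups overlapped, at a log2 change of 0.36 ± 0.24 (limma adjusted p = 0.765; 95% interval -0.20 to 0.92), and as deposited its value was -0.04. Over the 4 possible pairs of a nocodazole and a DMSO array, CXCL3 differed by 1.41 to 2.03, CXCL1 by 0.26 to 0.94 and CXCL2 by -0.08 to 0.81, so the range of CXCL3 lay above those of its paralogs. The difference between the 3 changes was not tested. With each array left out in turn, the change ran from 0.35 to 0.84 for CXCL1 and from 0.016 (without DMSO replicate 3) to 0.72 (without DMSO replicate 2) for CXCL2. Transcripts of these 3 genes are near-identical in parts, and hybridisation of one to the probes of another was not tested.

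The NF-kB-like run lies at nearly the same place in the 3 GRO promoters, shown because only CXCL3 of the 3 was called. The windows cover chr4:73869295-73869343 on the plus strand for CXCL1, chr4:74099244-74099292 on the minus strand for CXCL2 and chr4:74038739-74038787 on the minus strand for CXCL3. Over the whole 300-base windows CXCL1 and CXCL3 were 82.5% identical in a global alignment, CXCL2 and CXCL3 73.8%, and CXCL1 and CXCL2 71.9%, whereas CXCL8 and CXCL3 were 46.8% identical.
CXCL1: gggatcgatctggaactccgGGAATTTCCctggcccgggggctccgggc
CXCL2: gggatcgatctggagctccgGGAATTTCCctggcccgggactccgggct
CXCL3: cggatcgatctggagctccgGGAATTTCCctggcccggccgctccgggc

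CXCL5 and CXCL6 encode another close pair, the neutrophil attractants ENA-78 and GCP-2. CXCL5 measured 5.16 and 4.90 on nocodazole replicates 2 and 3, against 4.80 and 4.26 on DMSO replicates 2 and 3. Both nocodazole arrays were higher, by 0.11 at the smallest gap, and the log2 change of 0.51 ± 0.23 did not pass (limma adjusted p = 0.567; 95% interval -0.03 to 1.04). CXCL6 measured 4.79 and 4.89 on the nocodazole arrays, against 4.62 and 4.38 on the DMSO arrays. Its log2 change of 0.34 ± 0.19 did not pass either (limma adjusted p = 0.679; 95% interval -0.10 to 0.78). For CXCL5 and CXCL6 alike both nocodazole arrays were higher than both DMSO arrays, as for 16.4% of all genes. On the deposited scale the groups of both genes overlapped. With each array left out in turn, the change ran from 0.23 to 0.79 for CXCL5 and from 0.21 to 0.47 for CXCL6, lowest without DMSO replicate 3 and highest without DMSO replicate 2. As deposited the changes were 0.10 for CXCL5 and -0.07 for CXCL6, and both genes stood less than 1 log2 unit above background, at most 0.84 and 0.81, on every array. Their promoters, 83.1% identical, also hold the NF-kB-like run (chr4:73998739-73998787, minus strand, and chr4:73836569-73836617, plus strand).
CXCL5: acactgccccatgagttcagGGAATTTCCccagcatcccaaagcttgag
CXCL6: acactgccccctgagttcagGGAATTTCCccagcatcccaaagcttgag

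**Figure D2:**
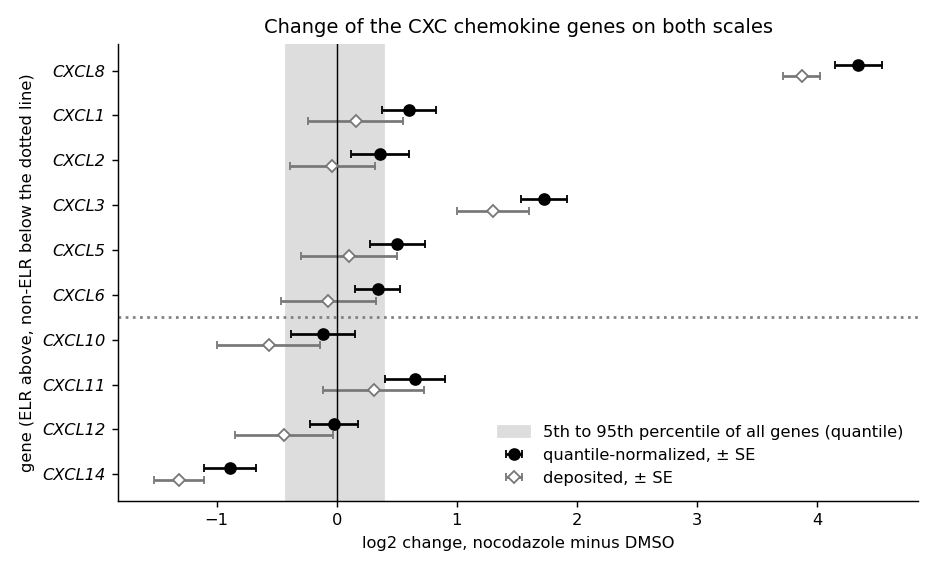
Change of each gene. Points give the log2 change, nocodazole minus DMSO, with limma's SE, after quantile normalization (filled) and as deposited (open), and the grey band spans the 5th to 95th percentile of all genes after quantile normalization, -0.42 to 0.39. As deposited the median gene is at -0.45. CXCL8 and CXCL3 stand above the band on both scales and CXCL14 below it, at -0.89 and -1.31, the points of CXCL10 and CXCL11 are of values below background, and each gene lies further left as deposited.

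CXCL10 and CXCL11, the interferon-induced ligands of CXCR3, were not above background on any array. CXCL10 read 3.02 and 3.00 on nocodazole replicates 2 and 3 as deposited, against 3.58 and 3.56 on DMSO replicates 2 and 3, which is 0.46 to 1.34 below background. CXCL11 read 2.87 and 2.92 on the nocodazole arrays, against 2.66 and 2.52 on the DMSO arrays, 0.80 to 2.15 below background. No fold is given for either, and limma's adjusted p was 0.976 for CXCL10 and 0.459 for CXCL11 after quantile normalization. Their promoters are shown because they combine the NF-kB-like run, here on the other strand, with further matches: the interferon type and a GGGACTTCC in CXCL10 (chr4:76023591-76023738, minus strand) and the AP-1 type in CXCL11 (chr4:76036117-76036177, minus strand).
CXCL10: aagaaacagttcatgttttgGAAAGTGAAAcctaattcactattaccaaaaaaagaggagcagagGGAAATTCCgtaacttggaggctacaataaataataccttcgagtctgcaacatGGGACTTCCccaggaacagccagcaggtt
CXCL11: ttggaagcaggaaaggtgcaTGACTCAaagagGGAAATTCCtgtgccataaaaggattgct

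CXCL12, known as stromal cell-derived factor, measured 4.74 and 4.38 on nocodazole replicates 2 and 3, against 4.66 and 4.51 on DMSO replicates 2 and 3. The groups overlapped, and the log2 change was -0.02 ± 0.20 (limma adjusted p = 0.993; 95% interval -0.50 to 0.45). It was dim in all samples, 0.28 to 0.45 above background. CXCL14, known as BRAK, measured 6.35 and 6.38 on the nocodazole arrays, against 7.59 and 6.92 on the DMSO arrays. Both nocodazole arrays were lower than both DMSO arrays, as for 20.1% of all genes, and the log2 change of -0.89 ± 0.21 (95% interval -1.38 to -0.39) did not pass (limma adjusted p = 0.192). As deposited CXCL14 was called lower, with a log2 change of -1.31 ± 0.21 (limma adjusted p = 8.52e-05), but 24.8% of all genes were called lower on that scale. The value moved with DMSO replicate 2, being -0.57 without it and -1.18 without DMSO replicate 3. None of the 4 motifs was found in the CXCL12 window, and CXCL14 holds TGAGTCA (chr5:135579057-135579103, minus strand).
CXCL14: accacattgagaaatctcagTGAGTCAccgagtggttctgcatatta

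The median change was higher over the ELR than over the non-ELR genes, as a description with no test over the members. Gene by gene, each of the 6 ELR genes had a higher value than CXCL12 (-0.02) and CXCL14 (-0.89). For CXCL10 and CXCL11, below background on all arrays, such an order cannot be told. CXCL11 had a value of 0.65, above those of CXCL1, CXCL2, CXCL5 and CXCL6, but this gives no size of a change. The median log2 change was 0.55 over the 6 ELR genes and -0.07 over the 4 non-ELR genes, against -0.01 over all genes. On the deposited scale these medians were 0.13, -0.50 and -0.45. Without CXCL8 and CXCL3 the 4 remaining ELR genes had a median of 0.43, and as deposited 0.03. The non-ELR median rests on few genes, since CXCL10 and CXCL11 were below background, and over CXCL12 and CXCL14 alone it was -0.46. Per array the ELR median level was 5.39 and 5.16 on nocodazole replicates 2 and 3, against 4.71 and 4.63 on DMSO replicates 2 and 3, and the non-ELR median was 3.90 and 3.89, against 3.86 and 4.07.

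The motifs are set beside the calls as a description, and a link between the 2 was not tested. GGAATTTCC or its reverse complement was found in 8 of the 10 windows, all 6 ELR genes and CXCL10 and CXCL11, and in 0.472% of 27305 promoters of the same length. Of these 8 genes 2 were called higher, while CXCL10 and CXCL11 were below background on all arrays. The motifs were chosen after the members' promoters had been looked at, so the count among members is no test against that share. Some windows are also near copies, with CXCL1 and CXCL3 82.5% and CXCL5 and CXCL6 83.1% identical. TGANTCA was found in CXCL8, CXCL11 and CXCL14 and in 7.76% of promoters, the interferon type in CXCL10 and in 3.65%, and GGGACTTCC in CXCL10 and in 0.971%. No 2 of these motifs overlapped in a member. CXCL8 was the 1 ELR gene with both an NF-kB-like and an AP-1-like run in its window, and the non-ELR gene CXCL11 held both as well.

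The 6 ELR genes described here lie in 1 cluster on chromosome 4, and CXCL10 and CXCL11 lie further along the same arm. In RefSeq's order of protein-coding genes the cluster runs CXCL8, CXCL6, PF4V1, CXCL1, PF4, PPBP, CXCL5, CXCL3 and CXCL2. CXCL8 and CXCL3, the called genes, are thus not neighbours. Of the platelet chemokine genes that stand between them, PF4V1 and PF4 had log2 changes of -0.03 ± 0.17 and 0.09 ± 0.14, and PPBP was below background on all arrays. Of 6 measured genes beside the cluster (EREG, EPGN, BTC, MTHFD2L, RASSF6 and PARM1) 0 passed, with a median of 0.23, and EPGN, BTC and RASSF6 were below background on all arrays. EREG, which encodes the growth factor epiregulin, measured 5.42 and 6.10 on nocodazole replicates 2 and 3, against 4.90 and 5.33 on DMSO replicates 2 and 3, a log2 change of 0.65 ± 0.26 (limma adjusted p = 0.476). MTHFD2L, a mitochondrial folate enzyme gene, had one of 0.28 ± 0.20.

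**Figure D3:**
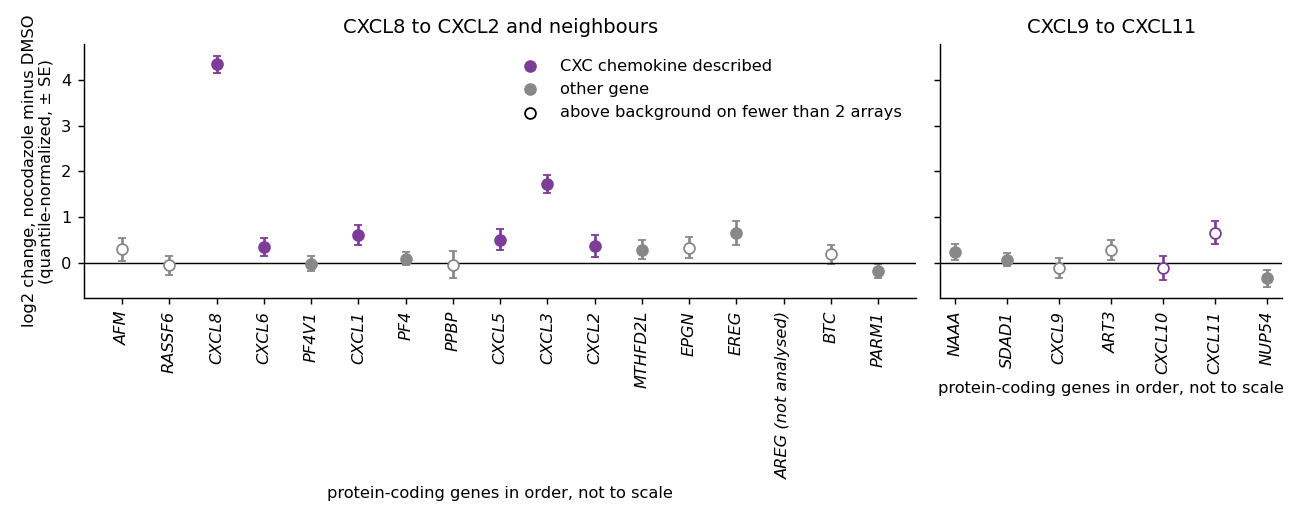
Log2 change by gene order on chromosome 4. Points give the change after quantile normalization with limma's SE for protein-coding genes in RefSeq order, not to scale, with the chemokines described here in purple and genes above background on fewer than 2 arrays as open circles. CXCL8 at 4.34 and CXCL3 at 1.72 stand above the other genes drawn, which run from -0.34 to 0.65.

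The 7 other CXC ligand genes measured (PF4, PF4V1, PPBP, CXCL9, CXCL13, CXCL16 and CXCL17) had a median log2 change of -0.03, and 0 passed; 3 of them were below background on all arrays. CXCL17, a mucosal chemokine, had a log2 change of 0.27 ± 0.18 and CXCL16, a transmembrane chemokine, one of -0.09 ± 0.16. Of 10 CXC and atypical receptor genes 0 passed, with a median of -0.01 and a range of -0.39 to 0.18, and 2 were below background on all arrays. CXCR1, a receptor of CXCL8 and CXCL6, was above background on 1 array only, by 0.19, and CXCR2, which binds all the ELR chemokines, had a log2 change of -0.02 ± 0.19. The log2 change was 0.11 ± 0.20 for CXCR3, -0.03 ± 0.20 for CXCR4, 0.18 ± 0.20 for ACKR2, a scavenger of CC chemokines, and -0.39 ± 0.21 for ACKR3, the scavenger of CXCL11 and CXCL12.

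Genes that act on CXC chemokines moved in part. The interleukin-1 genes IL1A and IL1B, known inducers of CXCL8, rose, and they were 2 of 11 measured inducing cytokines and receptors, with 0 lower and a list median of -0.05. IL1A measured 8.15 and 8.25 on nocodazole replicates 2 and 3, against 4.99 and 5.45 on DMSO replicates 2 and 3. IL1B measured 7.59 and 7.58 on the nocodazole arrays, against 4.86 and 4.79 on the DMSO arrays. TNF, a further inducer, had a log2 change of 0.38 ± 0.19 (limma adjusted p = 0.606), and IFNB1 and IFNG, the interferons that induce CXCL10, were below background on all arrays. These 2 interferon genes and TNF were named after their values were seen.

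Of 13 NF-kB subunit and inhibitor genes 1 rose, TNFAIP3, and 0 fell, with a median of 0.30. TNFAIP3, which encodes the feedback inhibitor A20, measured 8.30 and 8.37 on nocodazole replicates 2 and 3, against 6.62 and 6.88 on DMSO replicates 2 and 3, a log2 change of 1.58 ± 0.14 (limma adjusted p = 0.00652). On arrays centred on their medians TNFAIP3 was not called (limma adjusted p = 0.124). NFKBIZ, a nuclear cofactor of NF-kB, did not pass, at a log2 change of 1.08 ± 0.18 (limma adjusted p = 0.0622). Of 10 AP-1 and CEBP genes 0 passed, with a median of 0.13. Within that list ATF3, a stress-induced factor, had a log2 change of 0.56 ± 0.14 and JUNB, an AP-1 subunit, one of 0.48 ± 0.14. On the deposited scale the medians of these lists were -0.19 and -0.32, against -0.45 over all genes.

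Of 12 interferon response genes measured 0 passed, with a median of 0.11, and 4 of them were below background on all arrays. The log2 change was 0.20 ± 0.16 for IRF1, a transcription factor of that response, and 0.21 ± 0.18 for OAS1, an antiviral enzyme gene. Among 7 genes for proteins that bind or destabilise AU-rich chemokine mRNA 0 passed, with a median of 0.22. ZC3H12A, which encodes the ribonuclease regnase-1, had a log2 change of 0.69 ± 0.13 (limma adjusted p = 0.0992), and HNRNPD, which encodes AUF1, one of -0.39 ± 0.11 (limma adjusted p = 0.289). Of 11 genes for enzymes and proteoglycans that cleave or hold chemokines 3 rose and 0 fell, with a median of 0.18. They were the metalloproteinase genes MMP1, MMP3 and MMP9, at 2.70 ± 0.20, 2.88 ± 0.19 and 0.87 ± 0.12 (limma adjusted p = 0.00297, 0.00216 and 0.0457). MMP1 lay 0.19 below background on DMSO replicate 2, so the size of its change is not exact. On median-centred arrays MMP1 was called, while MMP3 (limma adjusted p = 0.0501) and MMP9 (0.826) were not. MMP9 cleaves CXCL8, and its call was close to the limit as deposited (limma adjusted p = 0.0499).

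**Figure D4:**
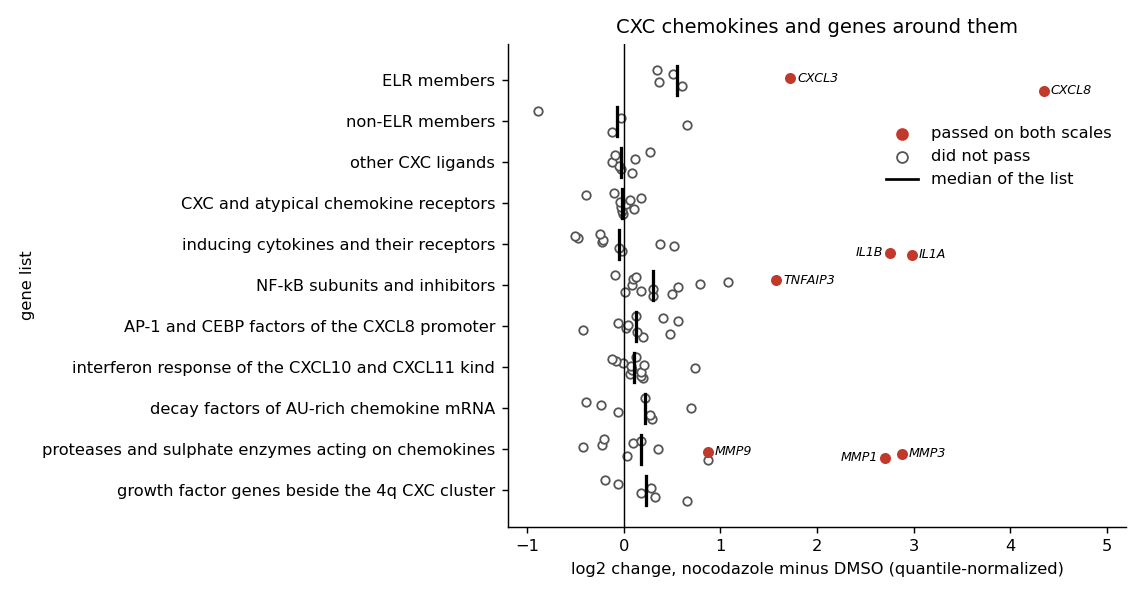
Log2 changes by gene list. Each point is 1 gene, placed by its change after quantile normalization (nocodazole minus DMSO), filled red where it passed on both scales, and the bar marks the median of the list. Beside CXCL8 and CXCL3, the genes that passed are IL1A, IL1B, TNFAIP3, MMP1, MMP3 and MMP9.

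The genes whose profile over the 4 arrays lay closest to that of CXCL8, by Euclidean distance of levels centred on each gene's own mean among 17898 other genes above background on at least 2 arrays, were CCL20 (distance 0.90), IL1A (1.42), MMP3 (1.46), ESM1 (1.49) and IL1B (1.65). CCL20, which draws cells that carry the receptor CCR6, measured 8.72 and 8.73 on nocodazole replicates 2 and 3, against 4.63 and 5.62 on DMSO replicates 2 and 3. Its change of 3.60 ± 0.28 was smaller than the 4.34 of CXCL8, and 0 genes came as close to CXCL8 as the genes nearest to CXCL12 came to CXCL12. The genes nearest to CXCL12 were LCE3B, NUGGC, GPR157, LAD1 and GGACT, at distances of 0.02 to 0.03, all with log2 changes between -0.05 and -0.03. With 4 arrays such likeness follows mainly the size of the change.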

How the data were processed

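The authors deposited 1 log2 value for each row of each array. Partek 7.0, RMA and the build hg19 come from the submitters' processing notes, with settings not given in the sources used here. Log base 2 was inferred from RMA and from values of 0.50 to 14.3. Of 65535 rows, 1530 controls were left out, and rows with exactly 1 gene symbol in the platform annotation gave 21469 genes (the row with the highest mean for 288 genes with several).

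All 64005 non-control rows were quantile normalized (limma 3.58.1, R 4.3.3). Limma's moderated test (eBayes with a variance trend, two-sided, no replicate block) was fitted over all genes on this and on the deposited scale, with Benjamini-Hochberg adjustment and a threshold of 0.05, and was tested on simulated data. Errors are limma's SE, n = 2 per group. The number of arrays limits the precision. The submitters' design text speaks of biological replicates. Members, lists and rules were chosen with earlier results of these data known. Named genes were all members, list genes that were called, the 2 with the largest absolute change per list among those above background on at least 2 arrays, IL1A, IL1B, CXCR1 to CXCR4, ACKR3, and the 5 nearest profiles to CXCL8 and CXCL12. Alignments used Biopython 1.88.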

Additional observations from a re-analysis of the deposited data

How the results depend on the processing

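With the deposited values alone limma called 50 genes higher and 5322 lower, and CXCL14 was then the 1 member called lower. The ELR and non-ELR medians were 0.13 and -0.50 there, and CXCL2 and CXCL6 turned to -0.036 and -0.072. Median-centred arrays alone gave 19 higher and 1 lower, with CXCL8 and CXCL3 still called, and TNFAIP3, MMP3 and MMP9 no longer. Without a variance trend limma called 1 gene higher, CXCL8, and 0 lower, with 809 and 1046 at an unadjusted p under 0.05. With dim genes left out 39 were higher and 57 lower, and the non-ELR median was -0.46, as it was over the members above background on all 4 arrays, an alternative added after the data were seen. With values raised to background 0 genes and 0 members were called (749 and 1137 at an unadjusted p under 0.05). The replicate number as a block gave 98 higher and 120 lower, with CXCL8 and CXCL3 called. The labels do not say what a number marks, and the deviations of same-numbered arrays from their group means correlated at 0.22. The numbers were not taken as pairs. With 1 array left out in turn, limma called 0 to 2 genes higher, 0 lower and 0 members, with 493 to 823 genes higher at an unadjusted p under 0.05; the lone array is then assumed to vary like the other group. CXCL8 ran from 4.20 to 4.51 and CXCL3 from 1.57 to 1.88, with unadjusted p up to 5.38e-05 and 0.00293. The ELR median ran from 0.46 to 0.75 and the non-ELR median from -0.18 to 0.035. The uncalled CXCL12 ran from -0.20 to 0.15; CXCL10, below background on all arrays, ran from -0.41 to 0.16, which gives no size of a change. No setting turned the direction of CXCL8, CXCL3 or CXCL14. The same held for CXCL1 and CXCL5, which no setting called, and for CXCL11, below background on all arrays. CXCL2 and CXCL6 turned only with the deposited values alone, a scale on which the median gene was at -0.45. CXCL10 and CXCL12 turned only in fits with 1 array left out. Signal near background limits all members but CXCL14, CXCL8 on the DMSO arrays included, and 4 arrays limit every p.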

Other observations

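Of the 31 genes called higher with nocodazole, 21 had a RefSeq promoter window of 300 bases. GGAATTTCC was found in 2 of these windows, those of CXCL8 and CXCL3. TGANTCA was found in 6 of the 21, or 28.6%, against 7.76% of all 27305 windows. The 6 genes, named after their values were seen, were CXCL8, IL1A, IL1RL1, PNLIPRP3, HTN1 and TM4SF19. IL1RL1, which encodes the receptor of interleukin-33, had a log2 change of 1.76 ± 0.25 (limma adjusted p = 0.0463). The interferon type was found in 2 of the 21 windows, or 9.52%, against 3.65% of all windows. GGGACTTCC was found in 0 of the 21, against 0.971%. The motifs were chosen after the promoters of the members, CXCL8 and CXCL3 included, had been looked at. The shares are a description, and no enrichment was tested.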
